A study of Mus musculus with 6 samples.

Results

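The genes described here encode receptors of the signaling lymphocytic activation molecule (SLAM) family and their adaptor SAP, and were followed in splenic CD4+ T cells that carried 0, 1 or 2 copies of the N159S variant of *Ikzf3*. The 7 genes, *Slamf1*, *Slamf6*, *Slamf7*, *Ly9*, *Cd48*, *Cd84* and *Sh2d1a*, were taken by their symbols from the 25239 genes listed for each library. *Ikzf3* encodes Aiolos, a zinc finger transcription factor of the Ikaros family, and N159S is a missense change that was put into the mouse germline by genome editing, so that every cell of the animals carried it. TCRβ+CD4+CD44-CD127+ cells, a gate that stands for naive T cells, were sorted from the spleens of C57BL/6 mice that were *Ikzf3* +/+, *Ikzf3* +/N159S or *Ikzf3* N159S/N159S. RNA-seq was done on 2 libraries of each genotype (6 in all). Neither the age nor the sex of the mice used for RNA-seq is given in the sources used here.

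SLAM family receptors sit on lymphocytes and other blood cells, where most of them bind the same receptor on a neighbouring cell. CD48, by contrast, is held in the membrane by a lipid anchor and binds the related receptors CD2 and CD244. The cytoplasmic tails of several of the receptors, among them those encoded by *Slamf1*, *Slamf6*, *Ly9* and *Cd84*, carry tyrosine motifs to which SAP, the product of *Sh2d1a*, docks through its SH2 domain and brings in the kinase Fyn, while phosphatases bind the same motifs when SAP is absent. In T cells the family is known for its part in the help given to germinal centre B cells and in the selection of natural killer T (NKT) cells.

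Libraries held 11696461 to 17317260 reads on genes. Of the listed genes, 12117 passed edgeR's filter on low counts and were tested, and all 7 genes were among them. Each comparison was made by edgeR's quasi-likelihood test in 1 fit of the 6 libraries, with p-values adjusted over the 12117 genes by the Benjamini-Hochberg method (FDR) and a threshold of 0.05. Normalized counts are reads scaled to a common library size, and log2 fold changes stand with their standard error (SE). Permuting 2 against 2 libraries exactly (two-sided) gives no p below 0.333 for a single gene, so that every FDR rests on a spread that was estimated across genes. *Ikzf3* itself had 1829 and 2296 reads in +/+, 2842 and 2363 in +/N159S, and 3387 and 2765 in N159S/N159S libraries. It was higher in N159S/N159S than in +/+ cells (log2 fold change 0.36, SE 0.093, edgeR FDR = 0.0490) and stood at 0.039 in +/N159S cells (edgeR FDR = 0.877). Counts per gene do not tell the variant allele from the other. Transcripts of T cells were present in every library, with *Cd4* at 681 to 993 CPM and *Cd3e* at 283 to 429 CPM (counts per 1e+06 reads of the TMM-scaled library size). *Cd8a* stood at 1.02 to 4.66 CPM, *Cd8b1* at 2.05 to 20.1 CPM and *Cd44* at 15.9 to 43.5 CPM. Both +/N159S libraries had abundant *Xist* RNA, which comes from the inactive X chromosome, at 730 and 824 CPM, against 0.772 to 1.98 CPM elsewhere. In every comparison with +/N159S cells the variant allele and this sex-linked difference cannot be told apart.

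The 6 receptor genes lie side by side on chromosome 1 of mm10 (GRCm38), within 364547 bases from 171588624 to 171953170, in the order *Ly9*, *Slamf7*, *Cd48*, *Slamf1*, *Cd84* and *Slamf6*. *Slamf1* spans 171767127 to 171801184 and *Slamf6* 171917515 to 171953170, both on the plus strand. *Sh2d1a* lies apart, on chromosome X from 42502453 to 42529330. The stretches in front of *Slamf1* and *Slamf6* are shown because these were the genes that changed between genotypes. Each is 240 bases long, ends shortly before the start of the gene in RefSeq (GRCm38.p6) and is written 5′ to 3′ on the plus strand. Capitals mark GGGAA, the core that Ikaros family proteins are known to bind, or its complement TTCCC.
Slamf1 (chr1:171766882-171767121, plus strand): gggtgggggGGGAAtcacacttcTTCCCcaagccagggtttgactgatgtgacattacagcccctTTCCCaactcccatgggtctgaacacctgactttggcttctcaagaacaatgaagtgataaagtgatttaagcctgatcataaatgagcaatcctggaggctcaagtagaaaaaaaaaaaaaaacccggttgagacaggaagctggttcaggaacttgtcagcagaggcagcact
Slamf6 (chr1:171917212-171917451, plus strand): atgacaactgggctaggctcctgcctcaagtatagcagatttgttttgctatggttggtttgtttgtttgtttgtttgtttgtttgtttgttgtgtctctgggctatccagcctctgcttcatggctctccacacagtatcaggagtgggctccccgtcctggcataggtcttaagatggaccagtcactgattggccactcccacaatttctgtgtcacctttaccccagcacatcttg
The *Slamf1* stretch held 3 matches, 1 on the plus and 2 on the minus strand, which do not overlap each other. The *Slamf6* stretch held 0 matches, and so did that of *Cd84*. The entries of *Slamf7* and *Cd48* belong to starts that lie inside the span RefSeq gives these genes and are left out. *Ly9* and *Sh2d1a* have no entry in the promoter table. Among 32851 stretches of the same length in that table, 54.7% held at least 1 match and 5.35% held 3 or more. A match is a description of letters and no measure of binding.

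In *Ikzf3* +/+ T cells the genes differed widely in level. As RPKM, the CPM divided by the exon length in kilobases (GENCODE M21), *Cd48* was highest at 82.2 ± 5.42 and *Ly9* followed at 72.9 ± 1.95 (SD, n = 2 for each gene here). Reads had been counted on refGene models, whose lengths can differ from these. RefSeq ends *Slamf6* at 171948958 and *Sh2d1a* at 42522097, short of the ends given above. Levels and orders between genes depend on the lengths, whereas comparisons of the same gene between genotypes do not. *Cd84* stood at 31.1 ± 1.98, *Sh2d1a* at 19.8 ± 0.957 and *Slamf6* at 18.7 ± 0.440. *Slamf1*, also called CD150, was much lower at 7.22 ± 0.165. *Slamf7*, known from plasma cells and cytotoxic cells, was close to the lower end of what was counted, at 0.342 ± 0.139. The libraries of *Sh2d1a* (20.5 and 19.2) and *Slamf6* (19.0 and 18.4) lay close together, and those of the other neighbours in this order did not overlap. *Cd48*, *Ly9* and *Cd84* kept the first places in the other genotypes, at 81.3 ± 7.98, 62.9 ± 7.95 and 29.9 ± 0.301 RPKM in +/N159S and at 73.5 ± 1.41, 63.5 ± 7.80 and 30.01 ± 2.85 in N159S/N159S cells. *Slamf6* (23.4 ± 1.41) and *Sh2d1a* (23.6 ± 3.23) overlapped in +/N159S libraries, whereas in N159S/N159S libraries *Slamf6* (25.6 ± 0.651) lay above *Sh2d1a* (20.01 ± 0.386). *Slamf1* stood at 5.13 ± 0.0743 and 2.06 ± 0.317 in these genotypes, and *Slamf7* at 0.695 ± 0.309 and 0.285 ± 0.0262.

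Of the 7 genes, 2 were past the threshold between N159S/N159S and +/+ T cells, *Slamf1* lower and *Slamf6* higher. Of all 12117 tested genes, 5.26% were past it, 2.12% lower and 3.14% higher. The median log2 fold change of the 7 genes was −0.16, against 0.00038 over all tested genes. In +/N159S against +/+ cells, 0 of the 7 were past the threshold in edgeR's test, against 1.75% of all genes, 1.15% higher and 0.602% lower. At an unadjusted p under 0.05 there were 3 of the 7 (*Slamf1*, *Slamf6* and *Slamf7*), against 16.3% of all genes, and DESeq2 called 0. In N159S/N159S against +/N159S cells only *Slamf1* of the 7 was past it, against 1.66% of all genes, 0.627% higher and 1.03% lower. The comparisons share libraries and are therefore not independent of each other. In bulk samples, fewer cells that express a gene and less of its RNA per cell cannot be told apart.

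*Slamf1* encodes a self-binding receptor that signals through SAP and shapes cytokine production after T cell receptor stimulation. It had 223 and 294 reads in +/+, 232 and 217 in +/N159S, and 85 and 84 in N159S/N159S libraries. As normalized counts these were 287 and 296, then 205 and 209, then 74.0 and 92.1. The libraries of the 3 genotypes did not overlap and fell in the order of the number of variant alleles, as they did in 3.67% of all tested genes. *Slamf1* fell 3.54-fold in N159S/N159S against +/+ cells, a log2 fold change of −1.82 (SE 0.18, 95% interval −2.21 to −1.44, edgeR FDR = 0.000153). It ranked 30 among the 12117 genes by p-value, and 0.693% of them had a lower fold change. Without any 1 of the 6 libraries the log2 fold change was −1.97 to −1.66, with an edgeR FDR of at most 0.00181.

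In +/N159S cells the mean of *Slamf1* was between those of the other genotypes, as were the means of *Slamf6* and *Cd48* and of 38.7% of all genes. Its log2 fold change against +/+ was −0.49 (SE 0.15, unadjusted p = 0.00740, edgeR FDR = 0.136), which did not pass the threshold. Of 10 other settings of the fit, 9 did not pass it either, with an edgeR or DESeq2 FDR of up to 0.262. The 1 that passed, at 0.0299 (edgeR), was a block that paired the libraries by the number of genes detected. That pairing was taken from these same counts. N159S/N159S against +/N159S cells gave −1.33 (SE 0.18, edgeR FDR = 0.00415). On the log2 scale 1 variant allele thus went with 0.271 of the difference seen with 2. The +/N159S cells lay 0.42 above the midpoint of the other genotypes (SE 0.14, unadjusted p = 0.0128, edgeR FDR = 0.282), so that a departure from equal steps was not past the threshold. In edgeR's test 0 of the 7 genes departed from the midpoint, against 0.825% of all genes above and 0.206% below it, while at an unadjusted p under 0.05 there were 3 of the 7 and 11.5% of all. Transcripts that serve as markers of other cells moved in these libraries as well, although bulk RNA does not tell which cells they came from. The summed level of 8 CD8 and NK cell markers, of which 6 could be tested, was 66.6 and 70.8 CPM in +/+, 59.7 and 54.2 in +/N159S, and 44.9 and 41.1 in N159S/N159S libraries. In that list *Cd8b1* was lower in N159S/N159S and *Gzma* higher, and the other 4 were not past the threshold. Of all genes, 2.12% fell and 3.14% rose. *Cd8b1* stood at 20.1 and 13.2 CPM in +/+, 12.4 and 8.75 in +/N159S, and 3.14 and 2.05 in N159S/N159S libraries. The part of these markers in the fall of *Slamf1* was not tested.

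*Slamf6* encodes Ly108, a receptor that in T cells is known for its part in contacts with B cells. It had 1567 and 1935 reads in +/+, 2685 and 2679 in +/N159S, and 3052 and 2513 in N159S/N159S libraries. The normalized counts were 2015 and 1949, then 2372 and 2583, then 2658 and 2756. Here too the 3 genotypes did not overlap, but the order was the reverse of that of *Slamf1*, and 4.08% of all tested genes rose in this way. The level was 1.37-fold higher in N159S/N159S than in +/+ cells, a log2 fold change of 0.45 (SE 0.093, 95% interval 0.25 to 0.66, edgeR FDR = 0.0173). The call held under 10 of 10 other settings of the fit (edgeR or DESeq2 FDR of 0.000122 to 0.0349) but not at an FDR under 0.01. It was lost without +/+ replicate 1 (edgeR FDR = 0.0920), +/+ replicate 2 (0.147), N159S/N159S replicate 1 (0.0679) or N159S/N159S replicate 2 (0.0982), at log2 fold changes of 0.43 to 0.48. In +/N159S against +/+ cells the log2 fold change was 0.32 (SE 0.093, unadjusted p = 0.00519, edgeR FDR = 0.116), and N159S/N159S against +/N159S cells gave 0.13 (SE 0.092, edgeR FDR = 0.641). With the block by genes detected, the FDR in +/N159S against +/+ cells was 0.00551 (edgeR). The other 9 settings did not pass the threshold there, with an edgeR or DESeq2 FDR of up to 0.182.

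**Figure D1:**
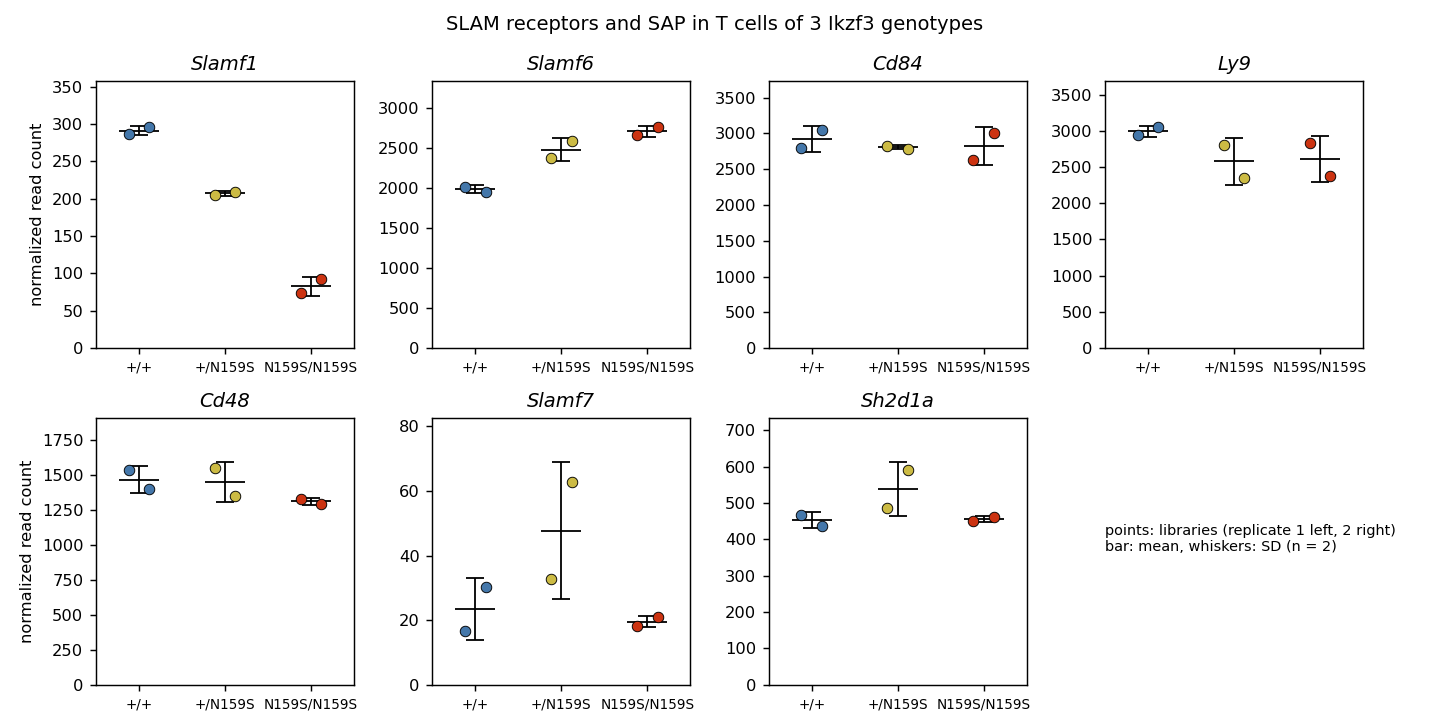
Normalized read counts (y axes, from 0) of the 7 genes in T cells of each *Ikzf3* genotype (x axes). Points are libraries, horizontal bars means and whiskers the SD of n = 2. The *Slamf1* points fall from 287 and 296 to 74.0 and 92.1 and the *Slamf6* points rise from 2015 and 1949 to 2658 and 2756. The other genes were not past the threshold in any comparison. Among them, the *Cd84* points overlap, and the *Ly9* points of both carrier genotypes lie below those of +/+. The N159S/N159S points of *Cd48* lie lowest, and the +/N159S points of *Sh2d1a* and *Slamf7* lie highest.

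*Slamf1* and *Slamf6* therefore changed in opposite directions within the same libraries. The number of *Slamf6* reads per *Slamf1* read, which does not depend on how libraries are scaled, was 7.03 and 6.58 in +/+, 11.6 and 12.4 in +/N159S, and 35.9 and 29.9 in N159S/N159S libraries. The 3 genotypes did not overlap in this ratio, which follows from the orders of both genes given above and is no separate result. *Cd84* reads per *Slamf1* read went from 9.73 and 10.3 to 13.8 and 13.3 and to 35.5 and 32.7. As *Cd84* itself was not past the threshold, this mainly restates the fall of *Slamf1*.

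The summed RPKM of the 6 receptors stayed within 191 to 214 in all libraries. It was 214 and 211 in +/+, 214 and 193 in +/N159S, and 199 and 191 in N159S/N159S libraries. Of the receptors' reads per kilobase, *Slamf1* held 3.33 and 3.47% in +/+, 2.38 and 2.69% in +/N159S, and 0.923 and 1.19% in N159S/N159S libraries. *Slamf6* held 8.91 and 8.71%, then 10.5 and 12.6%, then 12.6 and 13.6%. *Cd48* and *Ly9* made up most of the pool in every library, at 37.1 to 40.7% and 29.6 to 35.2%. The sum and the shares rest on the GENCODE exon lengths.

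**Figure D2:**
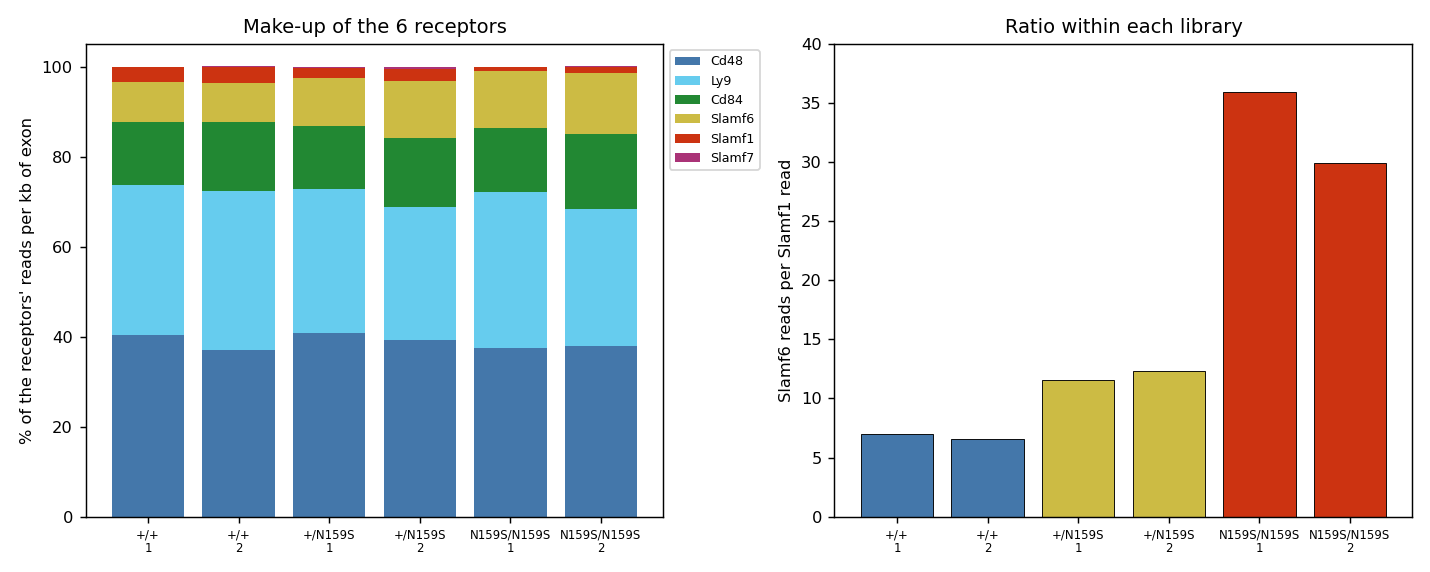
Left, share of each of the 6 receptor genes in their summed reads per kilobase of exon (y axis, %) in each library (x axis, genotype and replicate). Right, *Slamf6* reads per *Slamf1* read (y axis, from 0) in the same libraries, which run from 6.58 to 7.03 in +/+ and from 29.9 to 35.9 in N159S/N159S.

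*Cd84*, *Ly9* and *Cd48*, the receptors with the most reads besides *Slamf6*, were not past the threshold in any comparison. *Cd84* encodes a self-binding receptor that takes part with Ly108 in T cell contacts with B cells. Its normalized counts were 2791 and 3054 in +/+, 2826 and 2786 in +/N159S, and 2631 and 3009 in N159S/N159S libraries, and all genotypes overlapped. N159S/N159S cells had 0.964 times the +/+ level (95% interval 0.827 to 1.12, edgeR FDR = 0.846), and +/N159S cells 0.960 times (0.824 to 1.12, edgeR FDR = 0.814).

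*Ly9* encodes CD229, a receptor that binds itself and is abundant on T and B cells. Its normalized counts were 2935 and 3048 in +/+, 2809 and 2348 in +/N159S, and 2833 and 2381 in N159S/N159S libraries. Both carrier genotypes lay below both +/+ libraries, and in each of them replicate 2 was the lower one. The ratio to +/+ was 0.872 in N159S/N159S (95% interval 0.731 to 1.04, edgeR FDR = 0.416) and 0.862 in +/N159S cells (0.723 to 1.03, edgeR FDR = 0.396). Libraries with such an order, lower and without overlap, were found for 23.9% and 22.1% of all tested genes in these comparisons.

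*Cd48* had normalized counts of 1532 and 1396 in +/+, 1549 and 1348 in +/N159S, and 1327 and 1292 in N159S/N159S libraries. The N159S/N159S libraries were below all others, an order that in comparison with +/N159S was found for 21.6% of all tested genes. Their ratio to +/+ was 0.895 (95% interval 0.763 to 1.05, edgeR FDR = 0.477), and that of +/N159S cells was 0.990 (0.845 to 1.16, edgeR FDR = 0.965). The lower bounds for *Cd84*, *Ly9* and *Cd48* in these comparisons, 0.723 to 0.845 of the +/+ level, mark the falls that the data leave room for.

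*Slamf7* was counted with only 13 and 30 reads in +/+, 37 and 65 in +/N159S, and 21 and 19 in N159S/N159S libraries. Its normalized counts were 16.7 and 30.2, then 32.7 and 62.7, then 18.3 and 20.8, and the +/N159S libraries were the highest. Of all tested genes, 25% were higher without overlap in +/N159S against +/+ cells. In N159S/N159S against +/N159S cells 21.6% were lower without overlap. The log2 fold change was 0.96 in +/N159S against +/+ (SE 0.43, unadjusted p = 0.0454, edgeR FDR = 0.294) and −0.32 in N159S/N159S against +/+ cells (SE 0.52, 95% interval −1.45 to 0.82, edgeR FDR = 0.819), so that a fall of 2-fold lay within the interval and was not detectable at this depth. Without +/+ replicate 2 the latter was 0.22. The former was 0.43 without +/N159S replicate 2, 0.64 without +/+ replicate 1 and 1.49 without +/+ replicate 2, none past the edgeR threshold. B cell transcripts followed a similar course. The summed level of 11 B cell markers was 174 and 267 CPM in +/+, 438 and 711 in +/N159S, and 172 and 115 in N159S/N159S libraries. In +/N159S against +/+ cells 5 of the 11 rose (*Cd79a*, *Cd79b*, *Cr2*, *Cd74* and *H2-Aa*) and *Fcer2a*, which encodes CD23, fell. Of all genes, 1.15% rose and 0.602% fell there. In N159S/N159S cells 4 fell (*Cd79a*, *Ms4a1*, *Cr2* and *Fcer2a*) and 0 rose, where 2.12% of all genes fell and 3.14% rose. At an unadjusted p under 0.05 in edgeR's test there were 11 of the 11 in +/N159S and 7 in N159S/N159S cells. The shares of all genes were 16.3% and 18.3%. No B cell marker was at 0 in any library. In +/+ and +/N159S the library with more *Slamf7* also had more of the B cell transcripts, whereas in N159S/N159S it had fewer. Their part in the values of *Slamf7* was not tested.

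*Sh2d1a* had 364 and 434 reads in +/+, 551 and 613 in +/N159S, and 517 and 422 in N159S/N159S libraries. The normalized counts were 468 and 437, then 487 and 591, then 450 and 463, so that N159S/N159S libraries lay within the range of +/+ and both +/N159S libraries lay above them, an order found for 25% of all tested genes against +/+ (and for 24.3% in N159S/N159S against +/+). N159S/N159S cells had 1.01 times the +/+ level (95% interval 0.827 to 1.23, edgeR FDR = 0.975). The adaptor was thus not detectably changed in the cells in which *Slamf1* was lowest and *Slamf6* highest. In +/N159S cells the ratio was 1.19 (0.979 to 1.45, unadjusted p = 0.0759, edgeR FDR = 0.366). As *Sh2d1a* is X-linked and the +/N159S libraries were the ones with *Xist*, this ratio and that difference cannot be told apart.

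**Figure D3:**
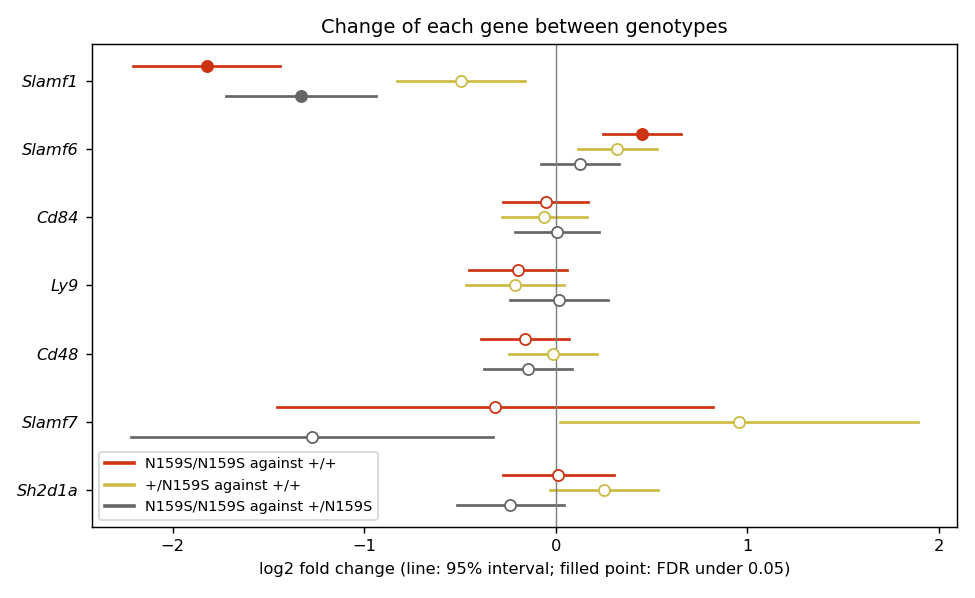
Log2 fold change (x axis) of each gene (rows) in the 3 comparisons between genotypes. Lines are 95% intervals and filled points have an FDR under 0.05, which are *Slamf1* in N159S/N159S against +/+ (−1.82) and against +/N159S (−1.33), and *Slamf6* in N159S/N159S against +/+ (0.45).

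The remaining genes of the family were at the lower limit of the counts. *Cd244a*, which encodes a receptor for CD48, had 0 to 11 reads, *Slamf8* 0 to 12 and *Slamf9* 0 to 7. The SAP-related adaptor genes *Sh2d1b1* and *Sh2d1b2* had at most 3 reads, and none of these 5 genes passed the filter. *Cd2*, the counter-receptor of CD48 on mouse T cells, had 289 to 338 CPM in all libraries and log2 fold changes of 0.074 in N159S/N159S and 0.084 in +/N159S against +/+ cells, neither past the threshold. The 8 genes of the pathway from SAP through Fyn (*Fyn*, *Prkcq*, *Bcl10*, *Malt1*, *Nfkb1*, *Vav1*, *Arhgef7* and *Gata3*) were all tested. None of the 8 was past the threshold in edgeR's test, with 0 at an unadjusted p under 0.05 in either comparison with +/+, and their log2 fold changes in N159S/N159S were between −0.19 and 0.13. Of 7 genes for phosphatases and other inhibitory partners of the receptors (*Ptpn6*, *Ptpn11*, *Inpp5d*, *Csk*, *Dok1*, *Dok2* and *Rasa1*), 0 were past it in edgeR's test and 1 had an unadjusted p under 0.05, with log2 fold changes between −0.29 and 0.26.

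Genes of the cell types for which the family is known were examined next. Of 12 genes of follicular helper T cells, 10 could be tested, as *Il21* and *Ascl2* had at most 4 reads. In N159S/N159S against +/+ cells 1 fell, 0 rose and 9 were not past the threshold, where 2.12% of all genes fell and 3.14% rose. That gene was *Icos*, which encodes a costimulatory receptor, with normalized counts of 777 and 772 in +/+, 698 and 700 in +/N159S, and 467 and 478 in N159S/N159S libraries (log2 fold change −0.71, SE 0.11, edgeR FDR = 0.00275). In +/N159S cells *Maf*, a transcription factor gene, was the 1 gene past the threshold, with 99.0 and 86.6 in +/+ and 258 and 219 in +/N159S libraries (1.37, SE 0.20, edgeR FDR = 0.00758). Of all genes, 1.15% rose and 0.602% fell past the threshold in +/N159S cells. At an unadjusted p under 0.05 in edgeR's test there were 3 of the 10 in N159S/N159S and 5 in +/N159S cells. The shares of all genes were 18.3% and 16.3%. The median log2 fold change of the tested genes was −0.17 in N159S/N159S and −0.083 in +/N159S cells, against 0.00038 and 0.011 over all genes.

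Of 8 genes linked to NKT and other innate-like T cells, though not all particular to them, 7 were tested. In N159S/N159S against +/+ cells 3 fell, 0 rose and 4 were not past the threshold. Of all genes, 2.12% fell and 3.14% rose. *Il2rb*, a subunit of the receptors for IL-2 and IL-15, had normalized counts of 363 and 501 in +/+, 458 and 454 in +/N159S, and 156 and 145 in N159S/N159S libraries (log2 fold change −1.53, SE 0.17, edgeR FDR = 0.000436). *Cd1d1*, which encodes the molecule that presents lipids to NKT cells, changed by −0.76 (SE 0.12, edgeR FDR = 0.00316), and *Myb*, a transcription factor gene, by −1.01 (SE 0.16, edgeR FDR = 0.00374). In +/N159S cells 0 of the 7 were past the threshold in edgeR's test. At an unadjusted p under 0.05 there were 6 of the 7 in N159S/N159S and 2 in +/N159S cells, against 18.3% and 16.3% of all genes. The median log2 fold change of the 7 in N159S/N159S cells was −1.01, against 0.00038 over all genes. The summed level of the 8 genes was 130 and 127 CPM in +/+, 115 and 122 in +/N159S, and 71.9 and 68.4 in N159S/N159S libraries. The defining genes of these cells were scarce, with *Zbtb16* at 7 to 38 reads and *Klrb1c* at 1 to 23. As with the CD8 and NK markers, this sum fell together with *Slamf1* in N159S/N159S cells, and its part in that fall was not tested.

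Of the other lists, 6 markers of effector and memory T cells summed to 131 and 132 CPM in +/+, 151 and 163 in +/N159S, and 116 and 126 in N159S/N159S libraries. *Il2rb*, which is also in the list of NKT and innate-like genes, fell in N159S/N159S and *Cxcr3* rose in +/N159S against +/+ cells. The 5 regulatory T cell markers summed to 86.0 and 90.5, 149 and 125, and 94.2 and 86.4 CPM, and *Ikzf2* rose in +/N159S cells. Among the T cell and naive markers reported here, *Lef1* fell in N159S/N159S and *Il7r* fell in +/N159S cells. *Il7r* encodes CD127, a marker of the sort gate. Its log2 fold change was −0.49 in +/N159S (SE 0.10, edgeR FDR = 0.0368) and −0.35 in N159S/N159S cells (SE 0.10, unadjusted p = 0.00549, edgeR FDR = 0.0799). Whether the gate took the same cells in each genotype was not tested. None of the tested plasma cell (3), myeloid (8) or platelet (2) markers was past the edgeR threshold in either comparison with +/+, whereas 2, 4 and 0 of them had an unadjusted p under 0.05 in N159S/N159S and 0, 1 and 0 in +/N159S cells, against 18.3% and 16.3% of all genes.

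**Figure D4:**
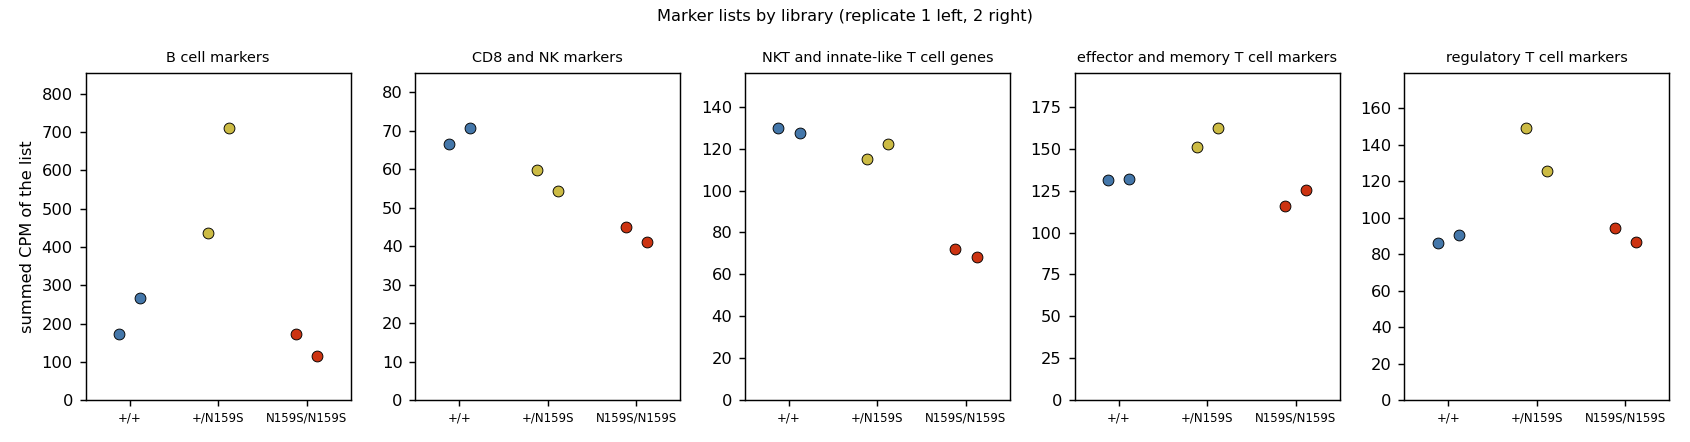
Summed CPM (y axes, from 0) of 5 marker lists in each library, by genotype (x axes). The B cell sum is highest in +/N159S (438 and 711 CPM), and the sums of CD8 and NK markers and of NKT and innate-like genes are lowest in N159S/N159S.

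Whether the changes extended to the neighbourhood on chromosome 1 was also examined. Within 250 kb of the interval that holds the 6 receptors, 20 genes were tested, of which 14 were not members. Of these 14, 2 were higher in N159S/N159S than in +/+ cells and 0 were lower, against 3.14% and 2.12% of all tested genes. Their median log2 fold change was 0.087, against 0.00038 over all tested genes. *Vangl2*, a planar cell polarity gene on the minus strand whose nearer end lies 233.8 kb from the start of *Slamf1*, had normalized counts of 91.3 and 87.6 in +/+, 147 and 176 in +/N159S, and 157 and 237 in N159S/N159S libraries (log2 fold change 1.12, SE 0.24, edgeR FDR = 0.0193). *Gm37065*, an antisense RNA on the minus strand that overlaps the start of *Slamf6*, had 63.0 and 69.5, 76.9 and 97.4, and 115 and 137 (0.91, SE 0.23, edgeR FDR = 0.0455). The counting was not stated to use strand, so reads of *Slamf6* and *Gm37065* cannot be told apart where the genes overlap, although their annotated exons do not. Along the chromosome these genes and *Slamf6* were neighbours among the tested genes, and *Cd84*, which lies between *Slamf1* and *Gm37065*, did not pass the test. *Slamf1* was the only 1 of the 20 genes that fell past the threshold. In +/N159S against +/+ cells 0 of the 20 were past it in edgeR's test, against 1.75% of all genes.

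**Figure D5:**
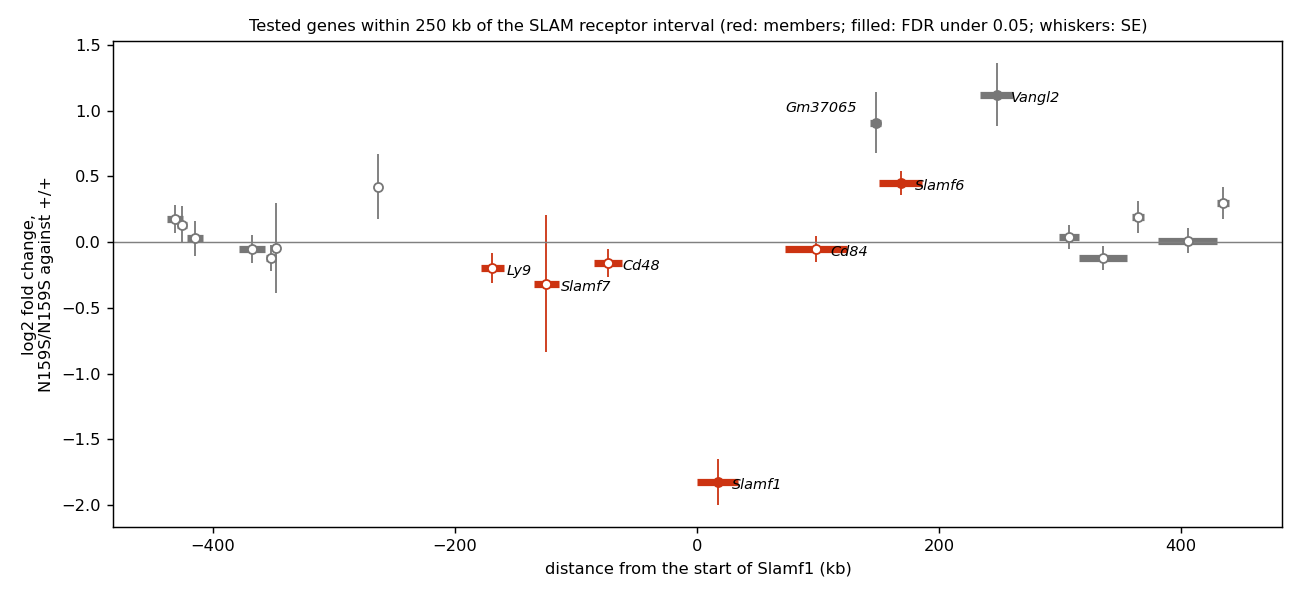
Log2 fold change in N159S/N159S against +/+ cells (y axis) of the 20 tested genes within 250 kb of the receptor interval, by distance from the start of *Slamf1* (x axis, kb). Bars span genes, whiskers are SEs, red marks the 6 receptors and filled points an FDR under 0.05, with *Slamf1* at −1.82 and *Slamf6*, *Gm37065* and *Vangl2* at 0.45, 0.91 and 1.12.

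For each of the 7 genes, the 3 genes with the most similar course over the 6 libraries were sought among 10410 genes by Pearson's r of log2 CPM. With 6 points from 3 genotypes such values are high for many genes, so they are given as a description. For *Slamf1* these were *Icos* (r = 0.994), *Sec22c* (0.992) and *A530021J07Rik* (0.992), and 244 genes had an r over 0.9. For *Slamf6* they were *Tmem109* (0.997), *Alad* (0.996) and *Tmtc3* (0.9945), with 348 genes over 0.9. The genes closest to *Slamf7* were *Apool*, *Ppif* and *Asf1a*, those closest to *Ly9* were *Ambra1*, *Srf* and *Hspb11*, and those closest to *Cd48* were *Psph*, *Ehhadh* and *Nup37* (r of 0.976 to 0.996). *Cd84* came closest to *Ptar1* (0.976), *Ypel2* and *Slc39a9*, and *Sh2d1a* to *Clstn1* (0.989), *Sec11c* and *Pycrl*. Between the members themselves, r was −0.84 for *Slamf1* with *Slamf6*, −0.77 for *Slamf6* with *Ly9* and 0.81 for *Slamf7* with *Sh2d1a*, over the same 6 libraries.

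Some of the other members also overlap annotated genes. *Sh2d1a* shares exon bases with *Tenm1* on the opposite strand, which had at most 12 reads. *Ly9* overlaps *Cd244a* on the opposite strand, outside exons. The exons of *Slamf7* overlap an antisense gene, *Gm37787*, that was not listed.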

How the data were processed

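RNA-seq counts of 6 T cell libraries were analysed; the study's B cells were not analysed here. RNA was poly(A) selected. The authors trimmed the reads with Trimmomatic (0.38.1), mapped them to mm10 with HISAT2 (2.2.1), counted them per refGene gene with HTSeq (2.0.2), as the submitters' processing notes give it, and deposited the counts without normalization. Reads on genes were 50.7 to 57.7% of the entries, and the lines for uncounted reads were left out of library sizes. Groups were taken from the genotype labels, and the 2 libraries of a genotype were separate mice by the methods. Their counts differed by more than sampling noise (chi-square per degree of freedom 10.4 to 13.5).

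The fits used edgeR 4.0.16 under R 4.3.3 (filterByExpr with a minimum count of 10 and a total of 15, TMM, 1 coefficient per genotype, quasi-likelihood test). SEs are the fold change divided by the root of the F statistic. The test was checked on simulated data. DESeq2 1.42.0 was an alternative. Log2 CPM used a prior count of 2. Coordinates and exon lengths are from GENCODE M21, and promoter stretches from RefSeq. The 7 genes, the lists and the block by genes detected were chosen with earlier results of these data known. Named beside them were list and neighbouring genes past the threshold in a comparison with +/+, defining markers, *Ikzf3*, *Xist* and the 3 genes most alike. The genes of the pathway lists, *Cd2*, the untested relatives and the genes overlapping members were named after their values were seen. Some genes of the marker lists are not reported here.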

Additional observations from a re-analysis of the deposited data

How the results depend on the processing

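Under 10 other fits, *Slamf1* in N159S/N159S against +/+ and against +/N159S cells, and *Slamf6* in N159S/N159S against +/+ cells, kept their direction and stayed past the threshold. An FDR under 0.01 left 1 of the 2 members called in N159S/N159S against +/+, and 257, 41, 54 and 33 genes in N159S/N159S against +/+, +/N159S against +/+, N159S/N159S against +/N159S and +/N159S against the midpoint, where an FDR under 0.05 gave 637, 212, 201 and 125. In the same order the likelihood ratio test gave 1042, 640, 473 and 356 genes, the exact test 992, 607 and 451 in the first 3 comparisons, and the block by genes detected 1756, 1422, 877 and 737. That block also put 2 members, *Slamf1* and *Slamf6*, past the threshold in +/N159S against +/+. No filter gave 542, 486 and 339 genes in the last 3 comparisons, and DESeq2 gave 327 in +/N159S against +/+. The replicate numbers of the titles did not pair the libraries (correlations of replicate deviations of −0.17, −0.22 and 0.24), and the replicate block gave 514, 170, 168 and 120 genes and 2, 0, 1 and 0 members, as without it. The block by genes detected equals this pairing with the numbers crossed in +/+.

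With each library left out in turn, members called were 1 to 2 in N159S/N159S against +/+. Genes called were 221 to 751 there (305 without +/+ replicate 1, 221 without +/+ replicate 2, 342 and 336 without N159S/N159S replicate 1 and 2), 68 to 250 in +/N159S against +/+ (105 and 68 without +/+ replicate 1 and 2, 128 without +/N159S replicate 2), 62 to 205 in N159S/N159S against +/N159S (110 and 62 without N159S/N159S replicate 1 and 2), and 66 to 117 for the midpoint (66 without +/N159S replicate 2, 73 without N159S/N159S replicate 2). A lone library is then assumed to vary like the other groups. Log2 fold changes that turned sign were all far from the threshold. In N159S/N159S against +/+ these were *Slamf7* (−0.63 to 0.22), *Cd84* (−0.14 to 0.041) and *Sh2d1a* (−0.034 to 0.062). In +/N159S against +/+ they were *Cd48* (−0.12 to 0.085) and *Cd84* (−0.12 to 0.0084), and in N159S/N159S against +/N159S *Ly9* (−0.12 to 0.16) and *Cd84* (−0.073 to 0.10). Against the midpoint they were *Cd48* (−0.042 to 0.16), *Ly9* (−0.25 to 0.0093) and *Cd84* (−0.080 to 0.0026). Depth limits *Slamf7*, and 2 libraries per genotype limit every test. Except where values are given here, the cause of these shifts was not tested.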
